A study of Homo sapiens with 4 samples.

Results

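The genes described here are 7 components of WNT signalling, chosen by name: the receptor FZD7, the secreted inhibitors SFRP1, SFRP2 and FRZB, the signal transducer CTNNB1, the transcription factor TCF7L1 and the feedback gene AXIN2. All 7 are among the 16174 genes of the table. They were read in H9, a long-established human embryonic stem cell line in the primed state, kept in mTeSR1 medium, as amplified poly(A) cDNA on a nanopore sequencer. All cells carried a doxycycline-inducible dCas9-BFP-KRAB, a nuclease-dead Cas9 joined to a repressor domain, integrated by the hyPBase transposase and selected with puromycin, and all received 1 µg/mL doxycycline. The SNHG26 arm had 4 pooled guides against the long non-coding RNA SNHG26, and the control arm had non-targeting guides. Each arm was harvested after 2 and after 3 days of doxycycline, with 1 library per arm and day. The 2 libraries of an arm therefore differ in day, each mean ± SD rests on n = 2, and nothing in the labels says whether the days came from separate cultures, so p-values measure only the spread between these libraries.

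WNT proteins are secreted ligands that bind Frizzled receptors and their LRP co-receptors. Without a ligand, a destruction complex built on AXIN marks β-catenin, the product of CTNNB1, for degradation, and TCF proteins with corepressors keep target genes off. With a ligand, β-catenin is stabilised, enters the nucleus and turns TCF-bound genes on, AXIN2 among them. In human embryonic stem cells the pathway is known for opening the way from pluripotency to mesendoderm, and secreted Frizzled-related proteins and TCF7L1 are known to hold it back.

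The cells carried markers of pluripotency. Of 11 listed pluripotency markers 10 had values, and together they stood between 1658 and 1899 TPM per library, with POU5F1 between 1050 and 1212 TPM. ZIC2, also a marker of primed cells, was listed at 0 in every library. Of 8 mesendoderm markers only 3 were listed, and FOXA2 and EOMES stood at 0 in every library. These 3 summed to 0 TPM in 3 libraries and to 1.98 TPM in the control library of day 3. The other mesendoderm markers could not be read. The 2 listed neuroectoderm genes (NES and POU3F1) summed to between 23.9 and 31.8 TPM, and the 6 listed naive-state genes to between 12.1 and 18.4. Each of these 6 naive-state genes had a mean of at least 1 TPM, so the markers do not settle the primed state. The 3 listed stromal genes summed to between 7.95 and 11.9 TPM. Only 2 of 7 amnion genes were listed, with ISL1 at 0, and they summed to at most 1.29 TPM. These sums cover unequal numbers of genes and do not rank the lists. NES alone, at 17.1 to 24.5 TPM, was above the pluripotency marker LIN28A, at 6.80 to 12.0 TPM. The targeted SNHG26 was listed at 0 and 0.933 TPM with its guides on day 2 and day 3, against 2.98 and 4.03 TPM with the control guides. The log2(TPM + 1) change was -1.69 (SE 0.58, limma adjusted p 0.935), which did not pass the threshold.

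The promoters of SFRP2 and FRZB are shown for these related inhibitors, secreted proteins that carry a Frizzled-like cysteine-rich domain. SFRP2 had the highest listed value of the 7 genes, and FRZB was listed at 0. Whether that 0 is an absence of reads was not tested, so the pair is not a contrast of an active with a silent promoter. The sequences are the 250 bases upstream of the RefSeq start (GRCh38.p14, minus strand for both), at chr4:153789084-153789333 for SFRP2 and chr2:182866638-182866887 for FRZB. Capitals mark a CCAAT box (CCAAT or its reverse complement ATTGG) and GC boxes (GGGCGG or CCGCCC).
SFRP2: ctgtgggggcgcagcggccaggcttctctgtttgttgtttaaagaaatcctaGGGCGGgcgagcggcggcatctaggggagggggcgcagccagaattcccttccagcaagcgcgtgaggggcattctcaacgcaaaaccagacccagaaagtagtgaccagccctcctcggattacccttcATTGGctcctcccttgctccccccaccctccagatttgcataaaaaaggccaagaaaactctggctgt
FRZB: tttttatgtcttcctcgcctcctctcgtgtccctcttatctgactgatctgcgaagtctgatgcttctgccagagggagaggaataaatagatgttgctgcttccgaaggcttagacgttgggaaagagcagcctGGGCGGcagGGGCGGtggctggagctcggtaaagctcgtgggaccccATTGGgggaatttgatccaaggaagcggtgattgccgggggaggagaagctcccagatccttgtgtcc
Both promoters hold an ATTGG whose first base is at -68, counted back from -1 just upstream of the start. A CCAAT box is in 32% of the 35116 RefSeq promoters of this length and a GC box in 42.6%. SFRP2 and FRZB each have 11 CpG dinucleotides, which is also the median over all promoters. The TCF/LEF core CTTTGAT (or ATCAAAG), present in 2.26% of all promoters, was in none of the 4 member promoters found in the table, those of SFRP2, FRZB, TCF7L1 and CTNNB1. The promoters of TCF7L1 and CTNNB1 were richer, with 24 and 34 CpG. The CTNNB1 window (41199255 to 41199504) lies inside the gene as listed, which starts at 41194741. A match or its absence describes these letters in this window and no more.

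FZD7, the Frizzled receptor known for its high level in human embryonic stem cells, is a gene of 1 exon on chromosome 2 (202033855 to 202038441, plus strand). It was listed at 19.1 and 37.0 TPM with the SNHG26 guides on day 2 and day 3, and at 31.5 and 29.3 TPM with the control guides. The lowest and the highest value both came from the SNHG26 arm, with the control libraries between them. In 3087 of the 13840 genes with a value, FZD7 among them, the deposited TPM was a whole number of reads over the genomic span of the gene (tolerance 0.001 read) in each library. For FZD7 the reads were 12 and 26 reads with the SNHG26 guides and 18 and 20 with the control guides, which is 38 reads in each arm. The means were 28.0 ± 12.7 (SD) and 30.4 ± 1.58 (SD) TPM, and the change was -0.18 on the log2 scale (SE 0.40, limma adjusted p 0.998). By day, it was -0.70 after 2 days and 0.33 after 3. The exact 95% Poisson interval of 12 reads, 9.85 to 33.3 TPM, overlapped that of 26 reads, 24.2 to 54.2 TPM. The ratio of the SNHG26 libraries, day 3 over day 2, was 1.94 per depth with an interval from 0.946 to 4.22 that includes 1. Reads here are amplified copies without molecular identifiers, and all such intervals cover counting error only.

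SFRP2, on chromosome 4 (153780591 to 153789083, minus strand, 3 exons), encodes a secreted protein that binds WNT ligands. It had the highest level of the 7 genes, at 60.1 and 64.6 TPM with the SNHG26 guides and 67.2 and 64.1 TPM with the control guides. The arms overlapped, and the highest library was 1.12 times the lowest. The values rest on 70, 84, 71 and 81 reads in that order. The SNHG26 libraries held 154 reads in all and the control libraries 152, a ratio per depth of 0.954 with an exact 95% interval from 0.758 to 1.20. The log2 change was -0.07 (SE 0.21, limma adjusted p 0.998), with -0.16 on day 2 and 0.01 on day 3. The means were 62.3 ± 3.19 (SD) and 65.6 ± 2.19 (SD) TPM. On log2(TPM + 1), SFRP2 spanned 0.16 over the 4 libraries. The median span of the 478 genes within 1.5-fold of its level was 0.69, and 2.72% of them spanned less. Among genes within 1.5-fold of their own levels, the share spanning less was 57.7% for FZD7, 23.0% for TCF7L1 and 12.6% for CTNNB1. This comparison was added after the values of SFRP2 had been seen. Genes were matched on TPM, not on reads. Since TPM here divides by genomic span, genes of like TPM can rest on unlike numbers of reads. The shares therefore do not show stability at equal reads.

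**Figure D1:**
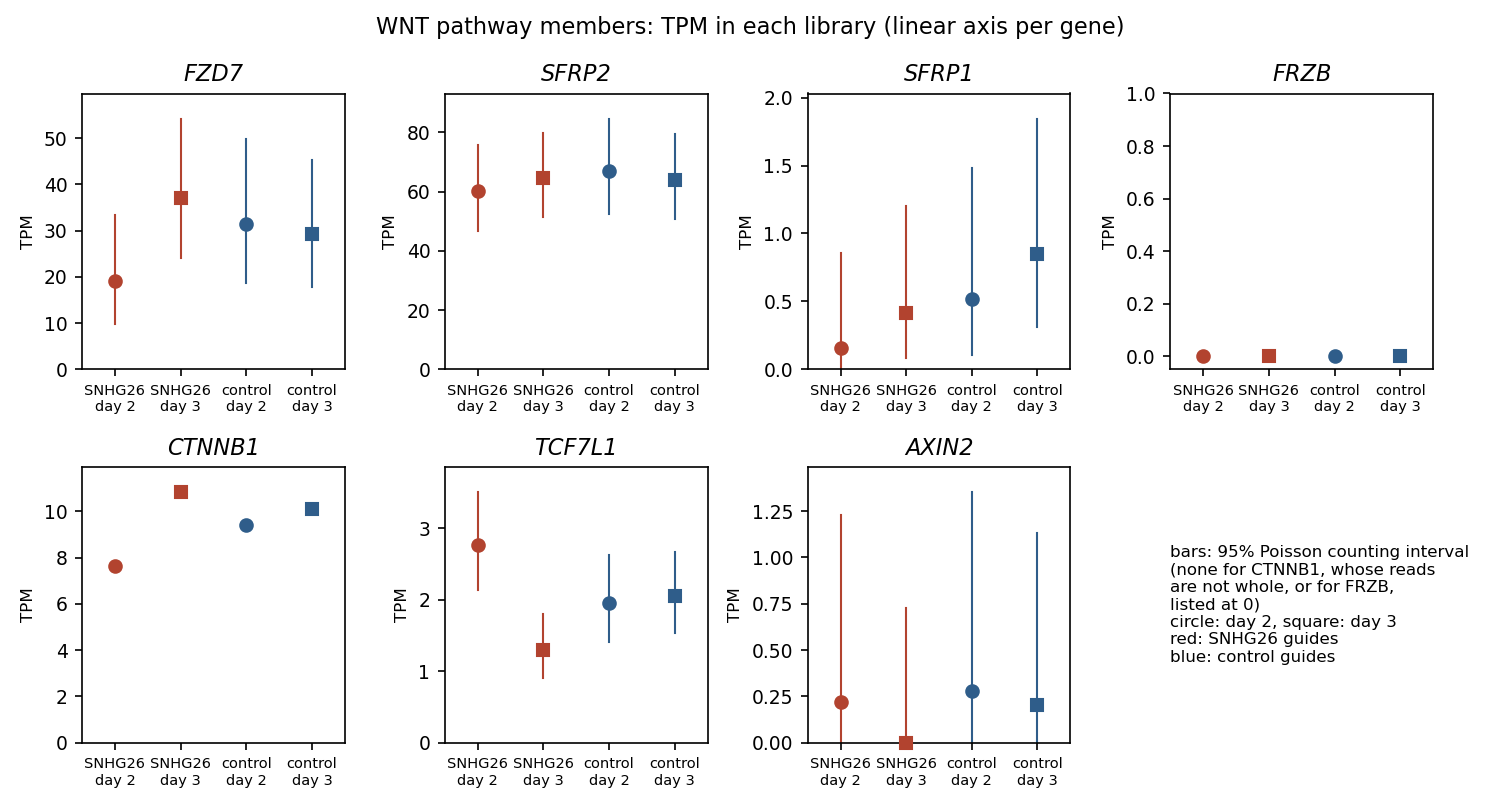
TPM of each of the 7 genes in each library, on a linear axis per gene, red for the SNHG26 guides, blue for the control guides, circles for day 2 and squares for day 3, with bars for the exact 95% Poisson interval where whole reads were recovered. SFRP2 lies between 60.1 and 67.2 TPM in all libraries, FZD7 and TCF7L1 have both their extremes in the SNHG26 arm, and FRZB is listed at 0.

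SFRP1 encodes another secreted WNT inhibitor (chromosome 8, 41261962 to 41309473, minus strand). It was listed at 0.153 and 0.412 TPM with the SNHG26 guides and at 0.517 and 0.848 TPM with the control guides. Both SNHG26 libraries were below both control libraries, and within each arm day 3 was above day 2. Among the 5566 genes with a mean above 0 and under 1 TPM, 11.7% lay in the same way below the control libraries without overlap, so this is a common pattern at such levels. Behind the values were 1, 3, 3 and 6 reads. The 4 reads against 9 gave a ratio per depth of 0.419, with an exact 95% interval from 0.0942 to 1.50 that includes no change. SFRP1 lay below the filter of the main test, a mean of 1 TPM or more. With every gene of any value tested, its log2 change was -0.39 (SE 0.25, limma adjusted p 0.873). The 3 reads of the day 2 control library were worth 3.06 reads on the full span of 47512 bases, which equals 2 reads on that span and 1 on 45027 bases, the span of the shorter SFRP1 transcript in GENCODE release 29.

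FRZB, also called SFRP3 (chromosome 2, 182833275 to 182866637, minus strand, 6 exons), was listed at 0 TPM in all 4 libraries. On its span, 3 reads, the one-sided 95% upper limit that a count of 0 allows, would be 0.656 and 0.587 TPM in the SNHG26 libraries and 0.722 and 0.604 TPM in the control libraries. The two-sided interval used for the other genes reaches 0.806, 0.722, 0.888 and 0.743 TPM in the same order. The table lists 1873 protein-coding genes at 0 in every library, among them DVL1, TNKS2 and PYGO2 of this pathway and the marker ZIC2. Whether such a 0 is an absence of reads or a failed estimate was not tested, so FRZB is described only as listed at 0.

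CTNNB1 encodes β-catenin, which carries the WNT signal and also links cadherins to the cytoskeleton (chromosome 3, 41194741 to 41260096, plus strand). It was listed at 7.64 and 10.8 TPM with the SNHG26 guides and at 9.40 and 10.1 TPM with the control guides. The SNHG26 arm held both the lowest and the highest library, and both day 3 libraries were above both day 2 libraries. The means by arm were 9.24 ± 2.26 (SD) and 9.74 ± 0.484 (SD) TPM, a log2 change of -0.09 (SE 0.33, limma adjusted p 0.998), with -0.27 on day 2 and 0.09 on day 3. CTNNB1 has 56 transcripts in GENCODE release 29, and its values are not whole reads on the full gene span. With the median transcript span, an estimated 42.3 and 66.9 reads lay behind the SNHG26 libraries and 47.2 and 60.5 behind the control libraries. The full gene span gives upper bounds of 68.5, 108.4, 76.5 and 98.1 reads. As listed, the gene overlaps ULK4, and whether counting used strand is not given in the sources used here.

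TCF7L1, also called TCF3, is the TCF factor known mainly as a repressor of WNT targets in pluripotent cells (chromosome 2, 85133392 to 85310387, plus strand, 12 exons). It was listed at 2.76 and 1.29 TPM with the SNHG26 guides and at 1.95 and 2.05 TPM with the control guides. As for FZD7, the SNHG26 arm held the extremes, here with the higher value on day 2. The reads were 67 and 35 with the SNHG26 guides and 43 and 54 with the control guides, in all 102 and 97. The means were 2.03 ± 1.04 (SD) and 2.00 ± 0.0689 (SD) TPM, and the log2 change was -0.03 (SE 0.48, limma adjusted p 0.998), the mean of 0.35 on day 2 and -0.41 on day 3. The counting intervals of the SNHG26 libraries, 2.14 to 3.50 TPM on day 2 and 0.900 to 1.80 TPM on day 3, did not overlap. Per depth, the day 3 library had 0.468 times the TCF7L1 reads of day 2 (exact 95% interval 0.302 to 0.715), while the control libraries had a ratio of 1.05 (0.690 to 1.61). Against the control library of the same day, TCF7L1 reads per depth stood at 1.41 (0.950 to 2.12) on day 2 and 0.630 (0.400 to 0.982) on day 3. These ratios compare single libraries, chosen after their values were seen. Across all genes, limma gave a difference of the guide change between the days of -0.76 (SE 0.90, adjusted p 0.992), which did not pass. With 1 library per arm and day, that fit has no replicate error. Its residual is made of the differences between the arms and between the days. Its p-values are therefore not tests against noise between replicates.

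AXIN2, the feedback inhibitor that WNT signalling switches on and a widely used readout of the pathway (chromosome 17, 65528563 to 65561648, minus strand), was close to the limit of detection. It was listed at 0.220 and 0 TPM with the SNHG26 guides and at 0.278 and 0.203 TPM with the control guides. These are 1, 0, 1 and 1 reads. The day 2 control value is 1.15 reads on the full span, which equals 1 read on 28849 bases, the span of a shorter AXIN2 transcript in GENCODE release 29. Both day 3 values were below both day 2 values, as for 13.9% of the genes with a mean above 0 and under 1 TPM. With 3 reads in all, no change in AXIN2 was detectable at this depth and no fold is given.

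**Figure D2:**
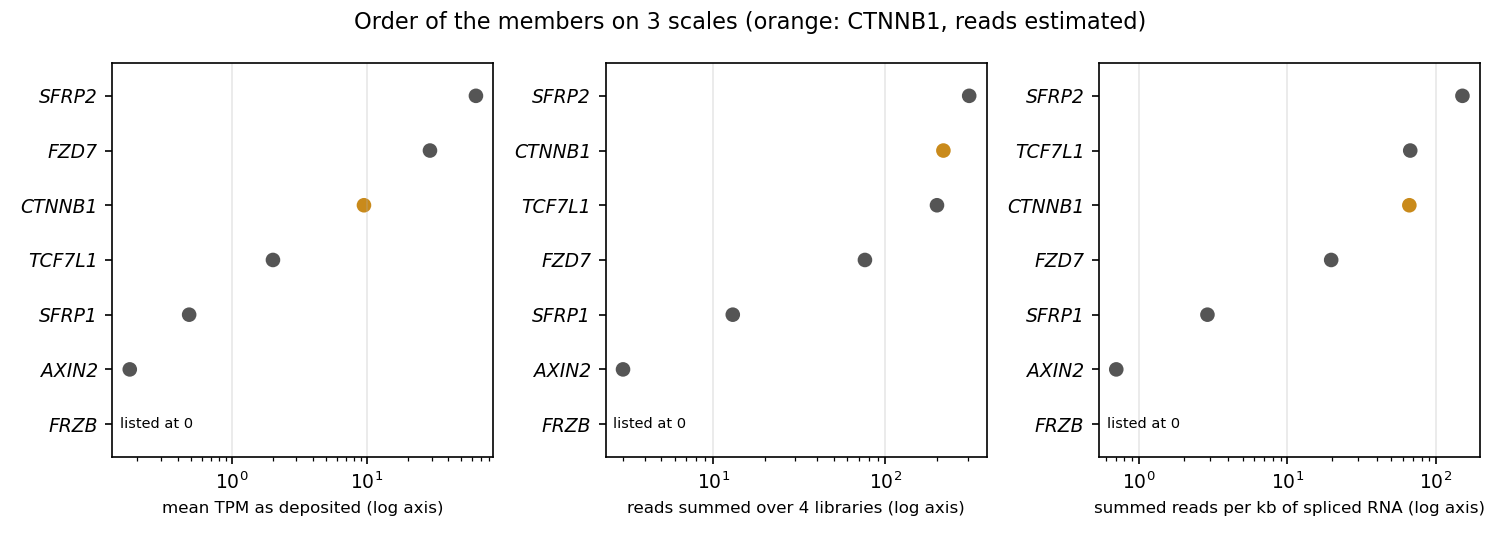
The 7 genes in order of mean deposited TPM, of reads summed over the 4 libraries, and of summed reads per kb of spliced RNA, each on a log axis, with CTNNB1 in orange since its reads are estimated. SFRP2 is first on each scale, and TCF7L1 moves from the fourth place by TPM to the second per spliced length while FZD7 moves from the second to the fourth.

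The order of the levels depends on whether the reads are divided by a length, and by which. A nanopore read stands for 1 cDNA copy whatever its length, so the summed reads compare genes without a length. Division by genomic span or by spliced length can shift ranks among such reads. By mean TPM over the 4 libraries, SFRP2 (64.0) was followed by FZD7 (29.2), CTNNB1 (9.49), TCF7L1 (2.01), SFRP1 (0.483) and AXIN2 (0.175). The span of TCF7L1 is 176996 bases, introns included, and its spliced RNA is 2968 bases in GENCODE release 29, a ratio of 59.6, whereas the ratio is 1.19 for the intronless FZD7. A read of TCF7L1 was worth between 0.0369 and 0.0454 TPM and 1 read of FZD7 between 1.42 and 1.75 TPM. In reads summed over the libraries, SFRP2 had 306, CTNNB1 an estimated 217, TCF7L1 199, FZD7 76, SFRP1 13 and AXIN2 3. Per kb of spliced RNA the summed reads were 151 for SFRP2, 67.0 for TCF7L1, an estimated 66.1 for CTNNB1, 19.7 for FZD7, 2.89 for SFRP1 and 0.704 for AXIN2. On this last scale SFRP2 was above TCF7L1, and TCF7L1 above FZD7, in every library. TCF7L1 and CTNNB1 did not separate, since their libraries ranged from 11.8 to 22.6 and from 12.9 to 20.4 reads per kb. The receptor thus ranked above the repressor by TPM and below it by reads, from the same libraries.

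Of the 7 genes, 4 (SFRP2, FZD7, CTNNB1 and TCF7L1) passed the filter and were tested. Between the guide arms 0 of them passed a limma adjusted p of 0.05, and 0 had an unadjusted p under 0.05. Over all 8274 genes tested the shares were 0% and 4.07%. Each of the 4 changes was smaller than its standard error, and the smallest exact two-sided permutation p that 2 libraries against 2 allow is 0.333. Each of the 4 changed sign between the days, as did 44.3% of all genes tested. Their difference between days did not pass in limma either (adjusted p from 0.961 to 0.999), where 0.0967% of all genes passed and 3.52% had an unadjusted p under 0.05, none of the 4 members among them. The largest such difference was 1.02 (SE 0.64) for FZD7. As for TCF7L1 above, the errors of this fit come from the arm and day differences, not from replicates.

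**Figure D3:**
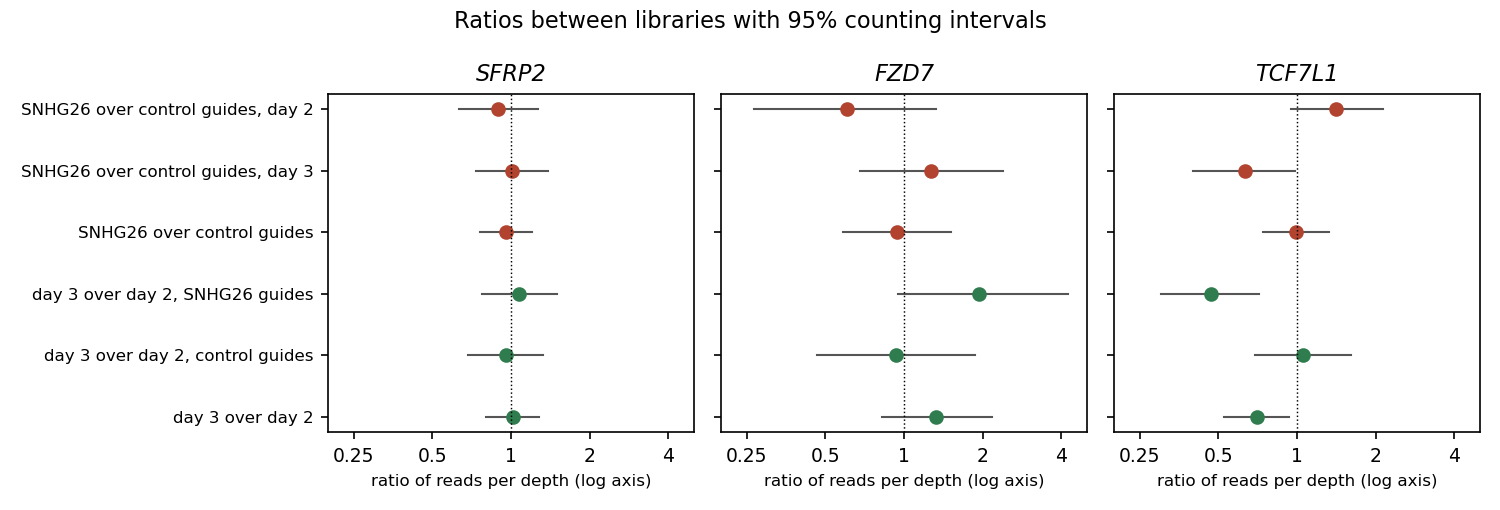
Ratios of recovered reads per depth for SFRP2, FZD7 and TCF7L1 with exact 95% counting intervals, on a log axis, between the guide arms (red) and between the days (green). The interval of TCF7L1 from day 2 to day 3 lies below 1 with the SNHG26 guides (0.302 to 0.715) and over both arms (0.524 to 0.936). Its interval between the guide arms on day 3 (0.400 to 0.982) does so too. The other intervals of TCF7L1 and every interval of SFRP2 and FZD7 include 1.

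Between day 3 and day 2, 0 of the 4 tested genes passed a limma adjusted p of 0.05 and 0 had an unadjusted p under 0.05, against 0.0363% and 6.61% of all genes. The log2 changes were 0.41 (SE 0.34, limma adjusted p 0.760) for FZD7, 0.27 (SE 0.26, adjusted p 0.777) for CTNNB1, 0.02 (SE 0.18, adjusted p 0.993) for SFRP2 and -0.33 (SE 0.42, adjusted p 0.834) for TCF7L1. CTNNB1 was the only one of the 4 whose days did not overlap, being higher on day 3, as 17.1% of all genes tested were. Its means were 8.52 ± 1.24 (SD) TPM on day 2 and 10.5 ± 0.530 (SD) TPM on day 3. Summed over the arms, TCF7L1 had 110 reads on day 2 and 89 on day 3, a ratio per depth of 0.701 (exact 95% interval 0.524 to 0.936). By arm the ratios were 0.468 with the SNHG26 guides and 1.05 with the control guides. FZD7 had 30 and 46 reads, a ratio of 1.33 (0.821 to 2.18).

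The rest of the pathway was described through 9 lists of 110 genes, the 7 included. Of these, 73 are in the table, 58 had a value in some library and 24 were tested. Between the guide arms 0 of the 24 passed (lowest limma adjusted p 0.935) and 0 had an unadjusted p under 0.05. Their median log2 change was 0.07, against 0.04 for all genes tested. The arms did not overlap for 6 genes higher and 1 lower with the SNHG26 guides, 29.2% of the 24 and 29.2% of all genes tested. The 6 higher genes were DVL2, DVL3, CSNK1E, CDH1, BCL9 and TCF7L2, and the lower one was CTNNBIP1. Between the days 0 of the 24 passed (lowest limma adjusted p 0.625), and 4 had an unadjusted p under 0.05, namely FZD2, GSK3A, PORCN and CCND1, where 6.61% of all genes did. PORCN, the enzyme that adds the lipid WNT ligands need for secretion, was listed at 3.03 TPM on day 2 and 0 on day 3 with the SNHG26 guides and at 3.56 and 0.568 TPM with the control guides, lower on day 3 in each arm (unadjusted p 0.024, limma adjusted p 0.625).

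Few ligands could be read. Of 23 WNT and R-spondin ligands 4 are in the table, 3 of them listed at 0, and the other, WNT9A, stayed under 1 TPM. Why the remaining ligands are not listed is not given in the sources used here. As for FRZB, whether a listed 0 is an absence of reads was not tested. An absence of ligands from the cells is therefore not shown. Of 18 receptors and co-receptors 16 are in the table and 13 had a value, 4 of them above the filter. FZD3 was listed at 0.273 and 2.53 TPM with the SNHG26 guides and 2.41 and 2.43 TPM with the control guides, low in the SNHG26 library of day 2. LRP5, LRP6, RYK, ROR1 and FZD6 had values below the filter, which by itself does not mean few reads. For LRP6 the reads were few, 2 and 3 with the SNHG26 guides and 0 and 1 with the control guides. The values of LRP5, RYK, ROR1 and FZD6 were not whole reads in every library. Since TPM here divides by genomic span, the filter sets aside long genes more readily than short ones. ROR1 spans 407482 bases, whereas CER1, which was tested, spans 3010. FZD2, a further Frizzled receptor of 1 exon, stood at 7.72 and 13.8 TPM with the SNHG26 guides and 4.25 and 16.0 TPM with the control guides, on 4, 8, 2 and 9 reads. It was higher on day 3 in each arm, and its day change had an unadjusted p of 0.028 but did not pass. FZD8 had 2 reads in 3 libraries and 0 in the control library of day 2. FZD4, FZD5 and FZD10 were listed at 0. Among the inhibitors, CER1 had 2 reads in the day 2 control library and 0 elsewhere. TMEM88, a membrane protein that binds Dishevelled, was listed at 0 and 18.9 TPM with the SNHG26 guides and 15.5 and 26.0 TPM with the control guides, on at most 4 reads.

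Of the cytoplasmic components, which relay the signal or build the destruction complex, 6 of 19 listed genes were tested. DVL3, a Dishevelled protein that links Frizzled to the complex, was listed at 10.4 and 12.5 TPM with the SNHG26 guides and 7.05 and 9.77 TPM with the control guides. Its arms did not overlap, and the log2 change of 0.42 (SE 0.33, limma adjusted p 0.935) did not pass. DVL2 lay in the same direction, on 6 and 5 reads against 3 and 3. CSNK1E, a casein kinase of the pathway, had 2.45 and 2.75 TPM with the SNHG26 guides and 1.99 and 1.27 TPM with the control guides, also without overlap. GSK3A, a kinase that phosphorylates β-catenin, was listed at 0.587 and 3.16 TPM with the SNHG26 guides and 1.29 and 11.3 TPM with the control guides, higher on day 3 in each arm (unadjusted p 0.049, limma adjusted p 0.749).

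Next to CTNNB1, its partner at cell junctions CDH1 (E-cadherin) stood at 10.6 and 10.8 TPM with the SNHG26 guides and 10.3 and 9.57 TPM with the control guides. Its log2 change was 0.10 (SE 0.28, limma adjusted p 0.998). CTNNA1 (α-catenin) was listed at 9.34 and 1.37 TPM with the SNHG26 guides and 1.24 and 9.24 TPM with the control guides. The high libraries were thus day 2 of the SNHG26 arm and day 3 of the control arm. The arm means were 5.35 ± 5.64 (SD) and 5.24 ± 5.66 (SD) TPM. For the difference of the guide change between days, 0 of the 24 tested pathway genes passed in limma. An unadjusted p under 0.05 was found for 1 of the 24, against 3.52% of all genes tested. That gene is in the list of β-catenin and its partners, which holds CTNNA1. CTNNA1 values are not whole reads on its span, and a shift between transcripts of different span changes TPM at equal reads. That shift was not tested here.

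CTNNBIP1, which blocks the binding of β-catenin to TCF factors, had 1.55 and 1.93 TPM with the SNHG26 guides and 2.55 and 2.91 TPM with the control guides, a change of -0.45 (SE 0.41, limma adjusted p 0.937) on the log2 scale. BCL9, a coactivator of β-catenin, had 2.68 and 2.09 TPM with the SNHG26 guides and 1.46 and 1.38 TPM with the control guides, a change of 0.48 (SE 0.43, limma adjusted p 0.935). Both had arms that did not overlap, in opposite directions, and neither passed.

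Of the nuclear factors, TCF7L2 had 1.65 and 1.78 TPM with the SNHG26 guides and 0.962 and 0.897 TPM with the control guides, TCF7 was listed at 0, and LEF1 had a value in 1 library. The corepressor TLE5 was listed at 19.2 and 12.2 TPM against 26.5 and 17.3 TPM, lower on day 3 in each arm. Among 19 response genes 9 are in the table, and CCND1 (cyclin D1) alone passed the filter. CCND1 was listed at 22.9 TPM on day 2 and 15.2 TPM on day 3 with the SNHG26 guides and at 24.7 and 11.5 TPM with the control guides. The log2 day change was -0.80, with an unadjusted p of 0.037, and did not pass over all genes (limma adjusted p 0.700). DKK1 and MIXL1 had values in the day 3 control library only, at 1.99 and 1.98 TPM, each worth about 1 read.

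**Figure D4:**
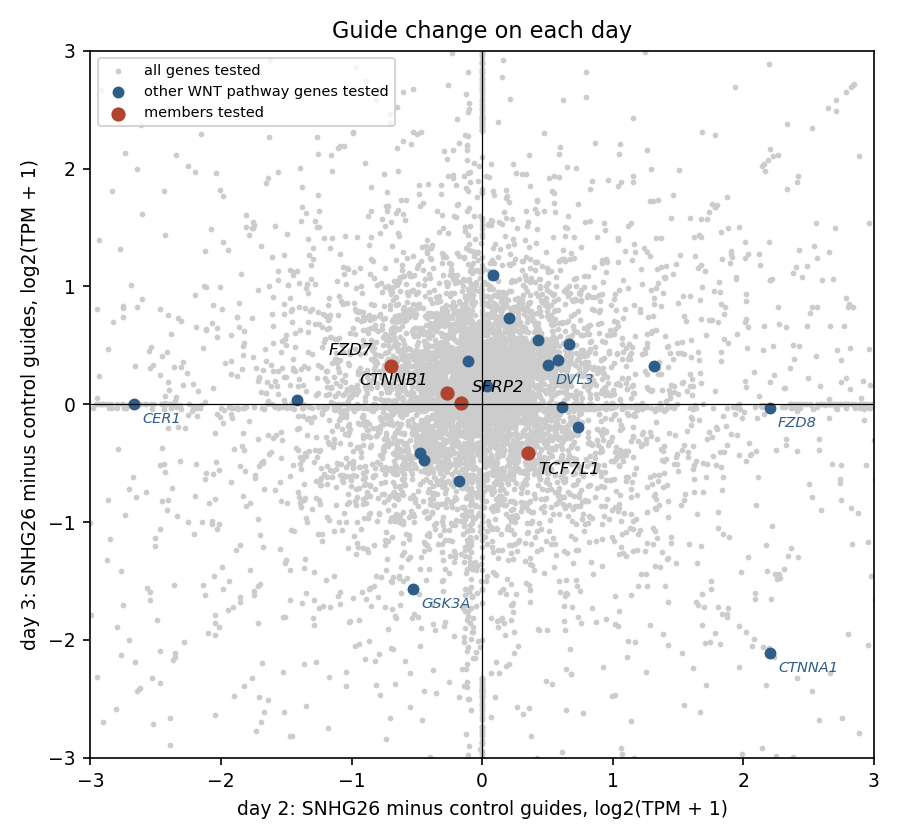
Change between the guide arms on log2(TPM + 1) on day 2 (horizontal) and day 3 (vertical), with the 8274 genes tested in grey, the other WNT pathway genes in blue and the 4 tested members in red; 802 genes, TMEM88 among them, lie outside the axes. SFRP2 sits near the origin, FZD7 and CTNNB1 are lower on day 2 and higher on day 3, and TCF7L1 is the other way.

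The likeness of patterns was measured as the root mean square difference of log2(TPM + 1) over the 4 libraries after subtracting each gene's mean, among 4375 other genes whose mean was 5 TPM or more. The closest gene was HNRNPR for SFRP2 (0.0138), CHCHD7 for FZD7 (0.0347) and CSTF3 for CTNNB1 (0.0178). With 4 libraries many genes are close: 1155, 189 and 836 genes lay within 0.2 of SFRP2, FZD7 and CTNNB1.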

How the data were processed

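The deposited file is a TPM table with a column for each of the 4 libraries. Minimap2 2.24-r1122 and GRCh38 are named in the submitters' processing notes, and the counting tool, annotation and filters are not given in the sources used here. The worth of 1 read was recovered per library as the most frequent value of TPM times gene span (0.729, 0.653, 0.803 and 0.672 TPM on 10 kb for the SNHG26 libraries of day 2 and day 3 and the control libraries of day 2 and day 3), with a tolerance of 0.001 read. On the full span, the listed genes hold at most 947338 to 1220265 reads per library. The TPM of the listed genes summed to between 953827 and 958319 per library, so other reads are not covered. Changes are on log2(TPM + 1), which understates low genes. Limma 3.58.1 (R 4.3.3; lmFit and trended eBayes) was run on the 8274 genes whose mean reached 1 TPM, with Benjamini-Hochberg adjustment over all of them and a threshold of 0.05, and the script was tested on simulated data. Libraries of the same day deviated from the means of their arms with a correlation of 0.0464 over genes. Counting intervals are exact, at 95%. The members and lists were chosen with earlier results of these data known. Beyond the members, the text names pathway genes whose mean reached 5 TPM, tested ones whose arms do not overlap, and others chosen after their values were seen.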

Additional observations from a re-analysis of the deposited data

How the results depend on the processing

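Alternatives were a pseudocount of 0.1 or 5, testing every gene with a value, testing only genes whose mean reached 5 TPM, quantile normalization, scaling by median ratios, untrended eBayes, the replicate block, and leaving out each library. None brought a member past the threshold in limma. Between the guide arms 0 genes passed in each case, the replicate block included. Between the days, 3 genes passed, and 0 did with either pseudocount, with every gene tested, quantile normalization, untrended eBayes or the replicate block, and without each library in turn (from 0 to 0). For the difference of the guide change between days, the count of 8 was 14 with the pseudocount of 0.1, 13 where the mean reached 5 TPM, and 0 with the pseudocount of 5, every gene tested or untrended eBayes. The cause was not tested, and no member is among these genes. This fit has no replicate error, so its counts do not measure departures from noise between replicates. Leaving out 1 library moved the guide change from -0.39 to 0.33 for TCF7L1, from -0.64 to 0.28 for FZD7, from -0.31 to 0.14 for CTNNB1 and from -0.12 to -0.02 for SFRP2. It turned positive for TCF7L1 without the SNHG26 library of day 3, and for FZD7 and CTNNB1 without that of day 2. The day change ran from -0.061 (without the SNHG26 library of day 2) to 0.097 for SFRP2, from 0.061 to 0.76 for FZD7, from -0.54 to -0.13 for TCF7L1 and from 0.14 to 0.41 for CTNNB1. The pseudocount set the size of the guide change of SFRP1, at -1.08 with 0.1 and -0.10 with 5. TCF7L1 lay below a mean of 5 TPM and had no test there. The difference between days was not fitted with a block or with 3 libraries. FRZB has no value under any setting. AXIN2 and SFRP1 rest on too few reads to show a change.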
